A study of Mus musculus with 3 samples.

Results

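The genes described here are 10 apolipoprotein genes of the mouse, Apoa1, Apoa2, Apoa4, Apoa5, Apob, Apoc1, Apoc2, Apoc3, Apoe and Apom, out of 23361 genes in each deposited table. They were chosen by symbol, and each symbol matched exactly 1 row. The data are mRNA profiles of livers from C57BL/6J mice labelled as male and aged 8 to 10 weeks, all fasted for 12 h before surgery under chloral hydrate. The sham group had a laparotomy with no occlusion and was sampled 90 min later. In the warm ischemia (WI) group, the vessels and bile duct of the left and median lobes (70% of the liver) were clamped for 90 min. The ischemia-reperfusion (IR) group had the same 90 min of clamping and then 120 min of reperfusion. Each group had 6 mice and is represented by 1 library, and whether that library pooled mice is not given in the sources used here. No difference below has a replicate check, and no sham library matches the IR library in time after surgery.

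Apolipoproteins are the proteins that coat plasma lipoproteins, and most of them are made and secreted by hepatocytes. ApoB is the structural protein of very low density lipoprotein (VLDL), apoA-I and apoA-II are the main proteins of high density lipoprotein (HDL), and the small C proteins and apoA-V regulate how quickly lipoprotein lipase removes triglyceride. ApoE is the ligand through which remnant particles are taken up by liver receptors, and it is made by macrophages as well as hepatocytes.

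Of the members, 7 lie in 2 gene clusters. Apoa1, Apoc3, Apoa4 and Apoa5 follow each other on chromosome 9 of mm10 from 46228630 to 46271919, a span of 43.3 kb. Apoc2, Apoc1 and Apoe lie on chromosome 7 from 19671579 to 19699166, a span of 27.6 kb that also holds Apoc4. Apoa2 is on chromosome 1 (171225054 to 171226379), Apob on chromosome 12 (7977677 to 8016839) and Apom on chromosome 17 (35128997 to 35131752). These intervals are whole genes, and no other gene's interval in the files overlaps any of them.

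The start regions of the 3 chromosome 9 genes that had their lowest FPKM in the WI library, and of Apob, the member that was lowest in the IR library, are printed here because the results turn on these genes. They come from RefSeq (GRCm38.p6, the assembly called mm10), all on the plus strand, and run from base -40 to base -11 before the start site. Capitals mark the letters TATAAA, the sequence of a TATA box.
Apoa1 (chr9:46228590-46228619): aactctaagttccacatcgccagcaaaagt
Apoa4 (chr9:46240804-46240833): tcccctagactcccaggctcattcctcctg
Apoa5 (chr9:46268568-46268597): cgcctagagTATAAAgtaagagtgtctgct
Apob (chr12:7977637-7977666): aagggccaggcagtctcatcagtgcctgca
Only the Apoa5 stretch among these 4 held TATAAA, at base -31 from the start site used here. Apoa5 has another listed start site, from which the same letters lie at base -56, outside this stretch. On either strand, 2.66% of the 32851 promoter windows in the same table held it in this stretch, and 13.6% held it anywhere in their 300 bases. Promoter windows were found for 8 of the 10 members, and those of Apoa2, Apoa5, Apob and Apoe held TATAAA on either strand. A match of letters is a description and not a binding site.

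Before the members are compared, 3 properties of the libraries need to be given. Xist, the RNA of the inactive X chromosome, had an FPKM (fragments mapped, scaled to transcript length in kilobases and to the library size) of 18.9 in the sham library, 20.2 in the WI library and 1.29 in the IR library. The Y-linked gene Eif2s3y was listed at 0 in the sham and WI libraries and at 13.2 in the IR library, and Ddx3y, also Y-linked, was at 0, 0.00849 and 8.58. The sham and WI libraries thus go against their male label and the IR library does not, so a difference in sex between the mice and reperfusion cannot be told apart in any comparison with IR. Only WI against sham compares libraries with the same pattern of these genes. Summed FPKM was 475754 in the sham library, 487912 in the WI library and 712423 in the IR library. The 20 major urinary protein (Mup) genes held 2.33%, 2.11% and 12.6% of it. Of these, 6 enter the IR share as 0, because their loci held too many fragments to process in that library. Albumin was set to 0 in all 3 libraries for that reason, while all 10 members had status OK throughout.

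Marker genes of other liver cells also moved. Summed FPKM of 8 Kupffer cell markers was 497 in the sham library, 254 in the WI library and 165 in the IR library. Of these 8, 2 were higher in IR than in WI: Marco (20.9, 12.6 and 25.3 in the same order) and Cd68 (18.5, 12.3 and 18.5). The summed FPKM of 7 neutrophil markers was 25.5, 19.3 and 469. The 8 endothelial markers summed to 146, 105 and 124, of which Lyve1 made up 11.2, 2.73 and 33.4. Only 3 of these 8 were higher in IR than in WI, and their median change in log2(FPKM + 1) was -0.088. The 8 stellate cell markers summed to 156, 111 and 115, the 6 bile duct markers to 54.3, 62.0 and 93.8, and the 6 erythroid markers to 751, 518 and 1976. The 10 hepatocyte markers, with albumin at 0, summed to 12578, 10938 and 11596. Among 6 enterocyte markers, Lct, Sis, Cdx2 and Alpi stayed below an FPKM of 0.1 in all libraries, and Fabp2, which made up nearly all of their sum, had an FPKM of 46.6, 43.8 and 63.6. In bulk liver, fewer cells of a type and less RNA per cell cannot be told apart, and the part of these markers in the results below was not tested.

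Among the HDL proteins, Apoa1 encodes the main structural protein and the activator of the enzyme LCAT. Its FPKM was 7630 in the sham library (95% bounds 0 to 15988), 4239 in the WI library (300 to 8179) and 8799 in the IR library (0 to 18858). The WI value was the lowest, and as deposited the sham and IR values were close to each other. The change on the scale of log2(FPKM + 1), the scale of all changes below, was -0.85 from sham to WI. That was the largest in size of any member in that comparison. From WI to IR the change was 1.05, past 2-fold. IR differed from sham by 0.21 as deposited and by -0.38 on a common sum of FPKM, described further on. Apoa2, the second most abundant HDL protein, had an FPKM of 11170 in the sham library (212 to 22127), 12572.5 in the WI library (0 to 25278) and 17704 in the IR library (0 to 37506). Its deposited level was highest in the IR library, by 0.49 over WI and 0.66 over sham. On a common sum the difference of IR from WI was -0.052. Apom encodes the HDL protein that carries sphingosine 1-phosphate. Its values were 273 (136 to 410), 317 (155 to 480) and 362 (174 to 551) in the same order, and its range of 0.41 over the 3 libraries was the smallest of the 10 as deposited. At a common sum it was 0.35, wider than that of Apoa2, at 0.13. The bounds are those of Cuffdiff's count model within a library, and they overlapped between libraries for all 3 genes.

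The regulators of triglyceride clearance split into genes that dipped in the WI library and genes that did not. Apoa5 encodes an activator of lipoprotein lipase, and its FPKM was 653 in the sham library (95% bounds 184 to 1121), 457 in the WI library (153 to 761) and 1001 in the IR library (203 to 1798). It was 0.51 lower in WI than in sham and 1.13 higher in IR than in WI, past 2-fold and as deposited the largest range of any member. At a common sum its range was 0.58, and those of Apob and Apoa1 were 1.35 and 0.88. Apoa4 encodes a protein of chylomicrons and HDL that fasting and fat feeding induce, and its values were 127 (60.3 to 194), 108 (52.2 to 163) and 182 (81.5 to 282). It too was lowest in the WI library, with changes of -0.24 and then 0.75. Enterocytes make apoA-IV as well. Of the 6 enterocyte markers, 4 were below an FPKM of 0.1 in all libraries and Fabp2 was at 46.6, 43.8 and 63.6, and their part in the Apoa4 values was not tested.

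The C proteins did not dip, and their higher levels in IR than in WI hold for FPKM as deposited but turn negative at a common sum. Apoc3 encodes an inhibitor of lipoprotein lipase and of remnant uptake. Although it lies between Apoa1 and Apoa4, its FPKM was 2833 in the sham library (930 to 4736), 3026 in the WI library (963 to 5089) and 3937 in the IR library (1079 to 6795). Those levels are a change of 0.10 from sham to WI, where Apoa1 changed by -0.85, and of 0.38 from WI to IR. Apoc2 encodes the required cofactor of lipoprotein lipase and had an FPKM of 227 (117 to 337), 292 (147 to 436) and 395 (193 to 597). Apoc1, which encodes an inhibitor of the binding and remodelling of lipoproteins, had 5368 (932 to 9803), 6708 (880 to 12537) and 9688 (150 to 19226). As deposited, both were higher in each library than in the one before it in the order sham, WI, IR, with differences between IR and sham of 0.79 for Apoc2 and 0.85 for Apoc1. At a common sum these differences were 0.21 and 0.27.

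Apob encodes the protein that each VLDL particle is built on, and its lowest value was in the IR library. Its FPKM was 379 in the sham library (95% bounds 0 to 772), 378 in the WI library (0 to 766) and 221 in the IR library (25.5 to 417). Sham and WI were nearly equal, and the change from WI to IR was -0.77. As deposited, Apob was the only member with a lower value in IR than in WI, whereas at a common sum 6 others were lower too. Apoe had an FPKM of 11465 (0 to 27081), 12460 (0 to 30029) and 16442 (0 to 43052), with changes of 0.12 and then 0.40, of which the latter was -0.15 at a common sum. Its difference between IR and sham was 0.52 as deposited and -0.062 at a common sum. Kupffer cells, the macrophages of the liver, also make apoE, and the part of their summed markers (497, 254 and 165) in the Apoe values was not tested. Of those 8 markers, 2 were higher in IR than in WI.

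**Figure D1:**
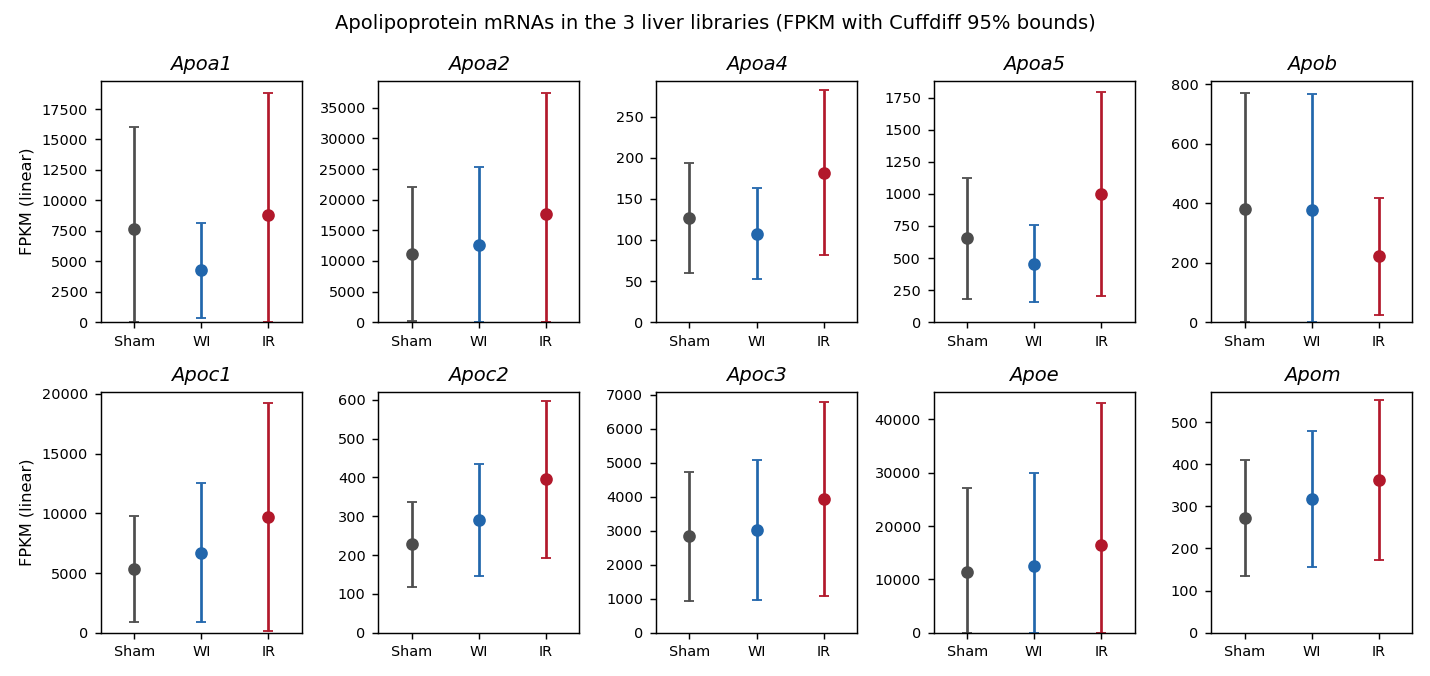
FPKM (linear axis, from 0) of the 10 apolipoprotein genes in the sham, WI and IR libraries. Points are the deposited values of 1 library each and bars the Cuffdiff 95% bounds. Apoa1, Apoa4 and Apoa5 are lowest in WI, Apob is lowest in IR, and the other genes are highest in IR as deposited (not at a common sum of FPKM), with bounds that overlap between libraries in every panel.

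The precision of these values is low for the most abundant members. The coefficient of variation implied by the upper bounds ran from 24.7% to 69.5% over the members in the sham library, with a median of 39.4%, against a median of 26.5% over all genes past the filter. It was highest for Apoe in each library, up to 82.6% in IR. The lower bound was 0 for 3 members per library. Counts were not in the files, so the number of fragments behind a value is not known from them.

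Of the 10 members, 0 differed at least 2-fold between WI and sham, where 1.83% of the 10764 genes tested did (0.743% higher and 1.09% lower). From WI to IR the count was 2 (Apoa1 and Apoa5), both higher, against 7.08% of 10758 genes (5.74% higher and 1.35% lower). Between IR and sham it was 0, against 7.42% of 10759 genes (5.34% higher and 2.08% lower). At 1.5-fold the counts were 1 (Apoa1, lower), 4 (Apoa1, Apoa4 and Apoa5 higher, Apob lower) and 5 (Apoa2, Apoa5, Apoc1 and Apoc2 higher, Apob lower), with backgrounds of 7.38% (3.13% higher, 4.25% lower), 19.7% (12.3% and 7.33%) and 23.7% (14.3% and 9.43%). In no comparison did the bounds of a member fail to overlap, which occurred for 0.678%, 3.59% and 3.79% of genes tested. With 10 members these counts are small, and no test was made of them.

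The median change of the members was 0.11 from sham to WI, beside 0.016 over all genes tested, and 6 members were higher, beside 52.6% of genes. From WI to IR it was 0.47, beside 0.027, and 9 of 10 members were higher, beside 52.5% of genes tested. Between IR and sham it was 0.52, beside 0.055, and 9 of 10 were higher, beside 54.4%. Abundant genes as a whole were shifted the same way: 86 other genes that reached an FPKM of 1000 in any library had a median change of 0.42 from WI to IR, and 82.6% of them were higher. For 27 secreted hepatocyte proteins other than apolipoproteins the median was 0.21. The comparisons of WI with sham and of IR with WI share the WI library, so a low value there enters both with opposite signs.

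**Figure D2:**
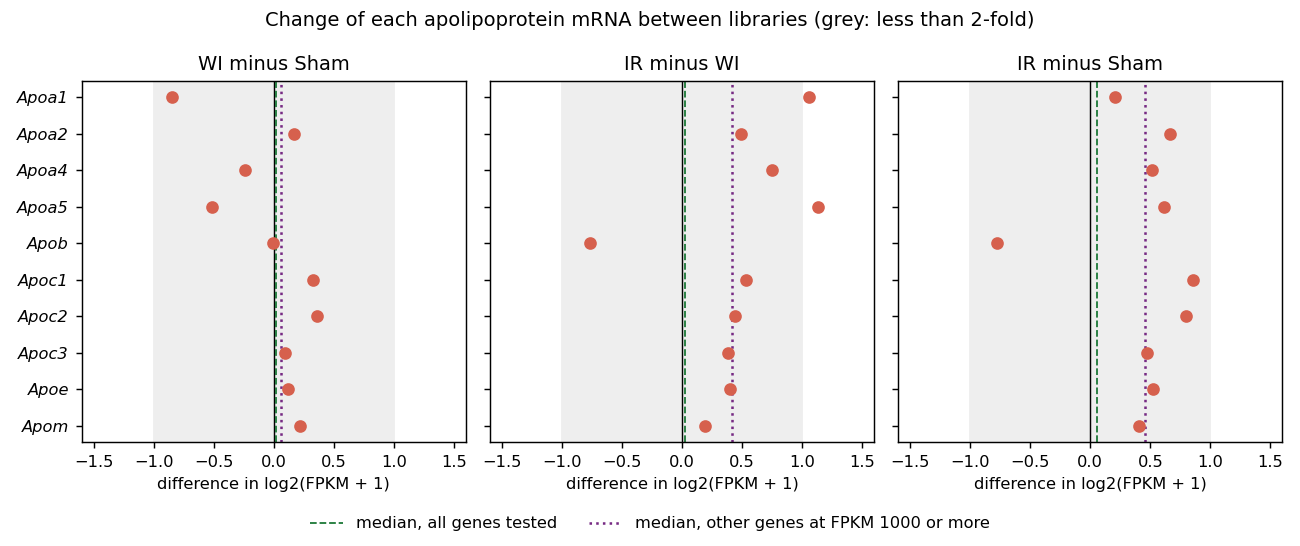
Difference in log2(FPKM + 1) of each apolipoprotein gene (rows) in the 3 comparisons; the grey band is less than 2-fold. The dashed line is the median of all genes tested (0.027 from WI to IR) and the dotted line that of other genes at an FPKM of 1000 or more (0.42), near which 5 members lie from WI to IR (Apoa2, Apoc1, Apoc2, Apoc3 and Apoe); Apoa1, Apoa4 and Apoa5 lie above it, and Apom and Apob below.

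Transcript length moved with the changes of all genes, a property examined after seeing the data. From WI to IR the median change was 0.33 in the shortest of 10 equal classes of transcript length (up to 1196 bases) and -0.24 in the longest (6029 bases or more), and it was lower in each class than in the next shorter one. From sham to WI the medians of the shortest and longest classes were 0.11 and -0.072. Most apolipoprotein mRNAs are short, with a median of 1024 bases against 2862 for all genes tested, and 6 members (Apoa1, Apoa2, Apoc1, Apoc2, Apoc3 and Apom) fall in the shortest class. Among genes that reached an FPKM of 100, the shortest of 5 classes had a median change of 0.49 from WI to IR and quartiles of 0.36 and 0.59, a range that holds the values of Apoa2, Apoc1, Apoc2 and Apoc3. Apob has the longest mRNA of the members, 13934 bases, and its -0.77 lay below the lower quartile of the longest class, -0.49. Of the 10 classes, Apoa1, at 1.05, lay above the upper quartile of its class, 0.53, as did Apoa4, at 0.75 (0.41), and Apoa5, at 1.13 with a transcript of 2515 bases (0.32). Apoc1, at 0.530, lay just above its upper quartile of 0.525. The part of transcript length in these differences was not tested.

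**Figure D3:**
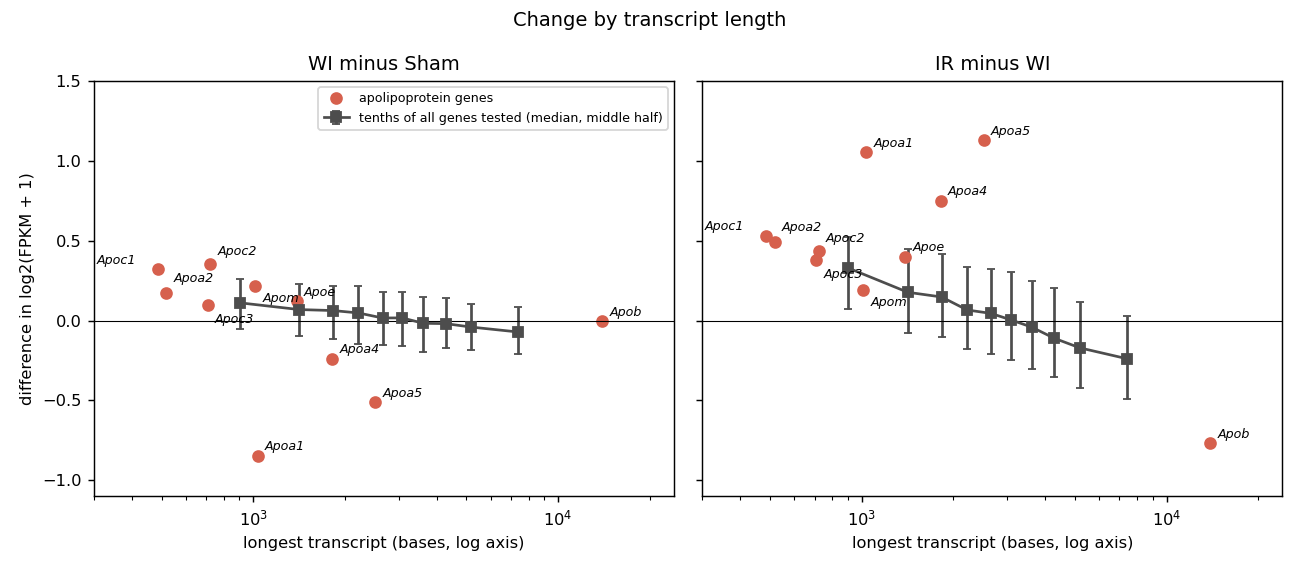
Difference in log2(FPKM + 1) against the longest annotated transcript (bases, log axis) from sham to WI (left) and from WI to IR (right). Squares are medians of 10 length classes of all genes tested, with bars from the lower to the upper quartile, and circles are the apolipoprotein genes; on the right the squares run from 0.33 down to -0.24, and Apoa1, Apoa4 and Apoa5 lie highest above and Apob farthest below them.

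The scale of the libraries decides the direction of most members from WI to IR. FPKM summed over all genes was 1.46 times higher in IR than in WI, and over the members it was 1.45 times higher. The members therefore held nearly the same share of summed FPKM as deposited in each library, 8.43% in sham, 8.31% in WI and 8.24% in IR. These sums lack albumin in all libraries, and the IR sum also lacks the Mup genes that had no value there. Neither these shares nor the common sum used next is thus like for like between IR and the other libraries. With all Mup genes left out, the shares were 8.64% in sham, 8.49% in WI and 9.43% in IR. When FPKM was rescaled to a common sum (TPM), which moves IR against WI by 0.55, only Apoa1 (0.51), Apoa4 (0.21) and Apoa5 (0.58) were still higher in IR, Apoa2, Apoc1, Apoc2, Apoc3, Apoe and Apom turned negative (-0.016 to -0.35), and Apob was at -1.31, past 2-fold. With the Mup genes left out of the sum, 7 members were higher, with Apoc3 and Apom below 0 and Apob at -1.15. Scaled by the median ratio of the secreted hepatocyte genes, 9 members were higher and 0 reached 2-fold, with Apoa5 at 0.94 and Apob at -0.96. Among all genes past 2-fold from WI to IR, 81.0% were higher in IR as deposited and 29.1% after rescaling to a common sum. Between WI and sham the scalings moved little: the signs of the members held under all of them, except that Apoc3 was at -0.0043 under the scaling by secreted hepatocyte genes.

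**Figure D4:**
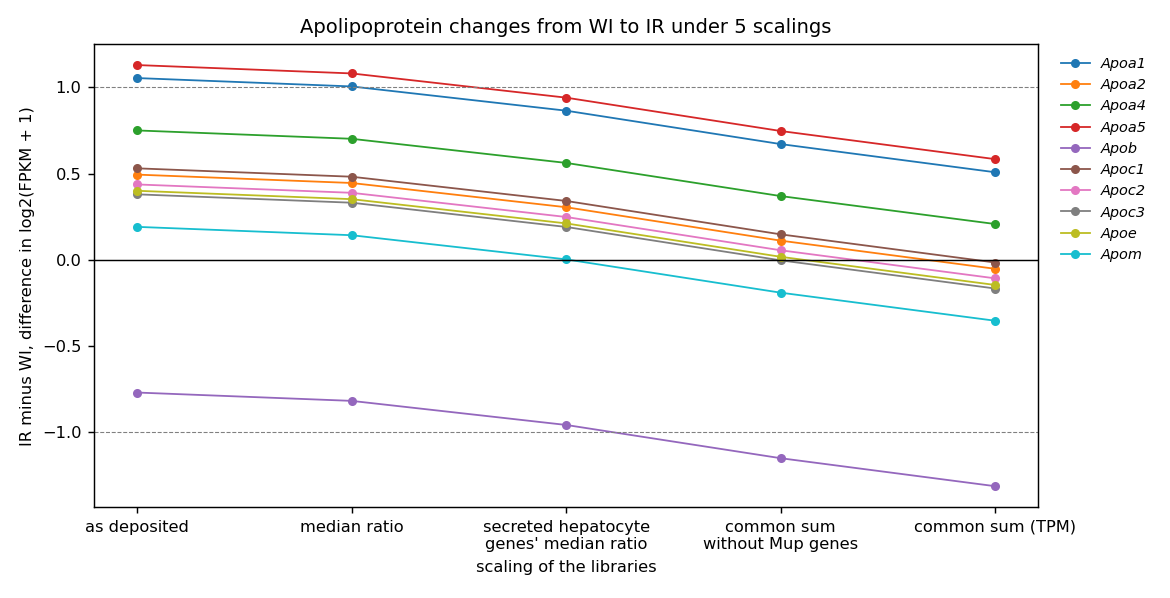
Difference in log2(FPKM + 1) from WI to IR of each apolipoprotein gene under 5 scalings of the libraries; dashed lines mark 2-fold. Apoa1, Apoa4 and Apoa5 stay above 0 and Apob below 0 under all 5, while the other 6 genes go from above 0 as deposited to below 0 at a common sum.

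Within the pool of apolipoprotein mRNA, the make-up differed between libraries. Apoa1 held 19.0% of the members' summed FPKM in sham, 10.5% in WI and 14.98% in IR. Apob went from 0.945% and 0.931% to 0.377%. These shares do not depend on the scale of the libraries. Apoe, Apoa2 and Apoc1 together with Apoa1 were the 4 highest members in each library, and Apoa4 was the lowest in each. Among genes given a value, which leaves out albumin, Apoe ranked first in the sham library and Apoa2 in the WI library. In the IR library, where 6 Mup genes had no value either, Apoa2 had rank 3. In the order of levels, each neighbouring pair of members had overlapping bounds, except Apoc3 and Apoa5 in the WI library. Apob moved from just above Apom in sham and WI to just below it in IR.

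On chromosome 7, the 4 neighbours had changes of like size. Apoc4, which encodes a minor apolipoprotein of VLDL and is not a member, had an FPKM of 1117, 1219 and 1832, and changes of 0.13 and 0.59. Those of Apoe, Apoc1 and Apoc2 were 0.12 to 0.36 from sham to WI and 0.40 to 0.53 from WI to IR. On chromosome 9 the changes from sham to WI ran from -0.85 for Apoa1 to 0.10 for its neighbour Apoc3.

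Other genes of lipoprotein metabolism were taken from lists by role. The lists' median changes from WI to IR were 0.010 for other apolipoproteins and related proteins, -0.039 for VLDL assembly and -0.036 for receptors. They were 0.14 for lipases and remodelling, -0.18 for efflux and -0.019 for regulators, beside 0.027 over all genes tested. Among 14 genes past the filter, of 17 listed as other apolipoproteins and related proteins, some of them intracellular, Saa1 and Saa2 shared the dip of Apoa1. Both encode acute phase proteins that displace apoA-I on HDL. Saa1 had an FPKM of 3414 in sham (95% bounds 863 to 5966), 1248 in WI (496 to 2001) and 3251 in IR (860 to 5642), changes of -1.45 and 1.38. Saa2 changed by -1.26 and 1.59. Apol7a, of the intracellular apolipoprotein L family, fell by 1.42 from WI to IR, and Clu, which encodes the HDL-bound chaperone apoJ, was 1.12 higher in IR than in sham. The other 10 were less than 2-fold apart in all 3 comparisons as deposited, among them Apoh, at 1519, 1499 and 1665.

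Of 15 genes for VLDL assembly and secretion, 0 were past 2-fold from sham to WI or from WI to IR as deposited. Past 2-fold, 1 was lower in IR than in sham. That gene, A1cf, encodes the RNA-binding partner of the Apob mRNA editing enzyme, and its FPKM was 38.4 in sham (19.4 to 57.3), 33.3 in WI (17.1 to 49.5) and 16.4 in IR (8.76 to 24.1). The enzyme itself, Apobec1, had 7.84, 5.51 and 8.12. Mttp, which encodes the protein that loads lipid onto apoB, had 89.7, 69.2 and 67.3. The most abundant genes of this list were P4hb, the other subunit of that lipid transfer protein, at 397, 538 and 566, and Dgat2, a triglyceride synthesis enzyme, at 288, 308 and 250.

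Of 11 receptors tested, of 12 listed, only Vldlr, the VLDL receptor, was called past 2-fold as deposited, from WI to IR. Its FPKM was 0.723 in sham (0.314 to 1.13), 1.85 in WI (0.904 to 2.81) and 0.399 in IR (0.104 to 0.694). Only the WI value reached the FPKM filter of 1. The bounds of WI and IR did not overlap, while those of sham overlapped both. Lsr and Sdc1, which take up remnant particles, were the most abundant, with Lsr at 55.0, 76.4 and 80.7 and Sdc1 at 92.3, 81.9 and 137.

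Among 9 lipases and remodelling factors, Angptl4, an inhibitor of lipoprotein lipase, had the largest change. Its FPKM was 122 in sham (58.6 to 185), 63.5 in WI (32.7 to 94.3) and 268 in IR (112 to 424), a change of 2.06 from WI to IR with bounds that did not overlap. Lipg, endothelial lipase, which acts on HDL phospholipid, fell by 1.02 from WI to IR and was 17.4 in sham (9.30 to 25.6) against 4.41 in IR (2.27 to 6.54), where the bounds did not overlap. Gm6484, an earlier symbol of Angptl8, which acts on lipoprotein lipase activity, rose from 10.0 in sham (2.93 to 17.1) to 31.1 in WI (13.2 to 48.9). Lcat, the enzyme that esterifies cholesterol on HDL, was the most abundant (256, 252 and 296) and passed 2-fold in no comparison. Of 8 genes for cholesterol efflux and sterol handling, Abca1, which loads lipid onto apoA-I, rose by 1.11 from WI to IR, at an FPKM of 14.7, 16.2 and 36.0. Abcg5 and Abcg8, the sterol exporter into bile, were 0.50 lower in IR than in sham as deposited.

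Of 24 transcription factors that act on apolipoprotein genes and passed the filter, 3 rose past 2-fold from sham to WI (Nr0b2, Nr1d1 and Srebf1). From WI to IR as deposited, 3 were called past 2-fold higher (Foxa3, Nr1d1 and Cebpb) and 2 lower (Ppara and Nr0b2). Thrb, at -0.88, was not called, although its plain FPKM ratio was 0.463. Nr1d1, the clock repressor REV-ERB alpha, which represses Apoc3 and Apoa5, had an FPKM of 5.06 in sham (2.52 to 7.61), 16.7 in WI (8.98 to 24.5) and 47.0 in IR (24.3 to 69.7). Nr0b2, the repressor SHP, had 11.6 (5.75 to 17.5), 30.02 (16.1 to 44.0) and 5.99 (2.65 to 9.32). Ppara, the fatty acid receptor that induces Apoa5 in liver, had 41.2, 43.2 and 17.2. Hnf4a, a main activator of the chromosome 9 cluster, had 144, 122 and 136, and Cebpb had 158, 113 and 334. All genes named as past 2-fold in IR against either library as deposited kept their direction at a common sum, but several were no longer past 2-fold. From WI to IR, 8 of 12 were still past it, and Saa1 (0.83), Abca1 (0.58), Foxa3 (0.61) and Nr1d1 (0.90) were not. Between IR and sham, 4 of 9 were, and Clu (0.54), Angptl4 (0.55), Abca1 (0.68), Foxa3 (0.87) and Cebpb (0.49) were not. Changes of less than 2-fold as deposited were not rescaled for these lists, so a gene past 2-fold only at a common sum is not counted. That scaling lowers IR against WI by 0.55. Deposited falls from WI to IR that it would enlarge include those of A1cf (-0.98), Lrp1 (-0.92) and Apol9b (-0.67). Of the 12 genes of these lists called past 2-fold from WI to IR, 9 had overlapping bounds and 3 (Vldlr, Angptl4 and Nr0b2) did not. Vldlr passed the filter only through its WI value.

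**Figure D5:**
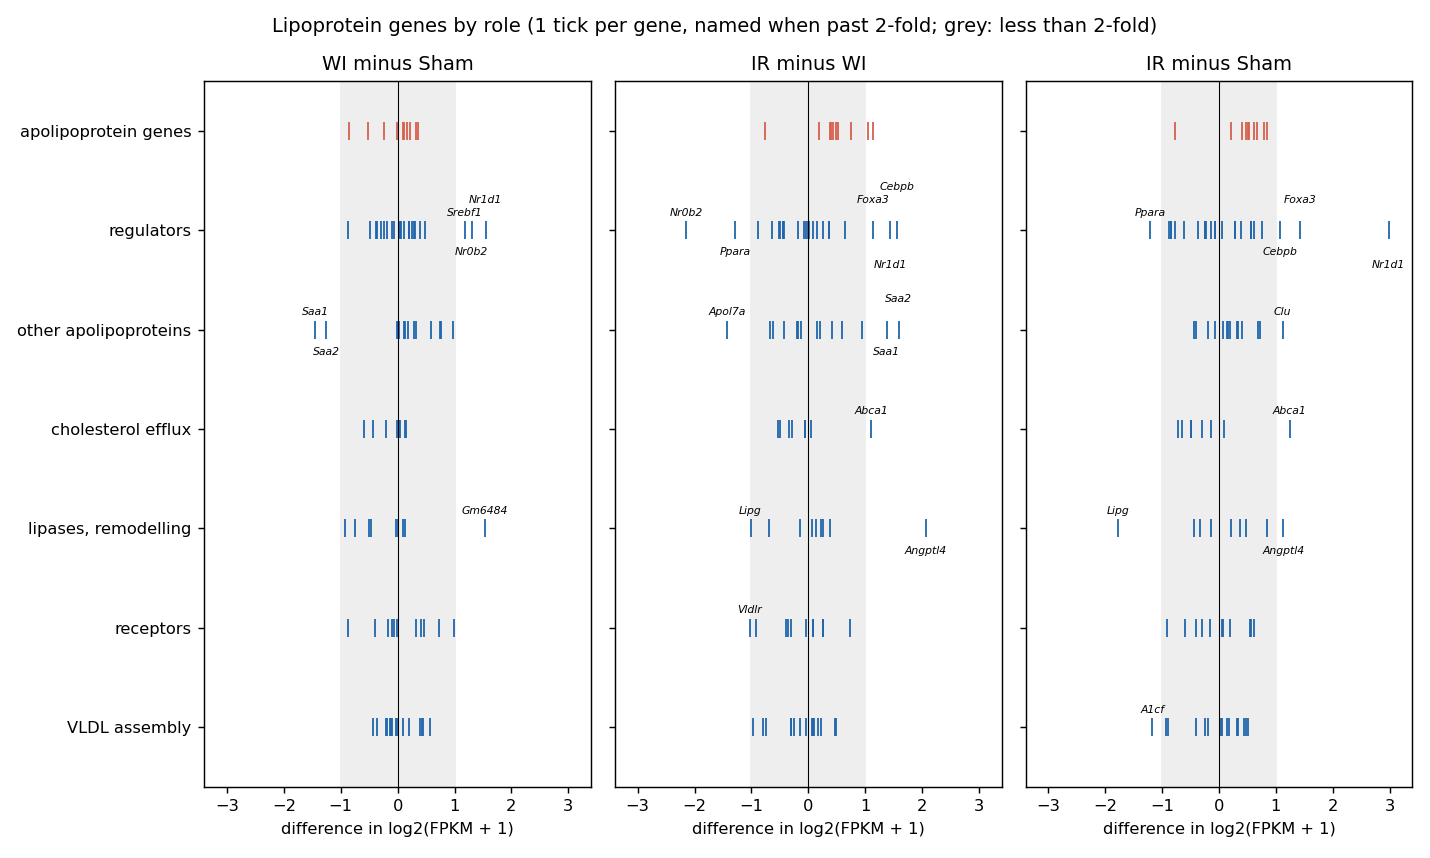
Difference in log2(FPKM + 1) of lipoprotein genes by role in the 3 comparisons, with 1 tick per gene, the grey band for less than 2-fold, and names for genes past it. From WI to IR the apolipoprotein genes (top row) run from -0.77 to 1.13 as deposited and the regulators from -2.15 for Nr0b2 to 1.55 for Cebpb.

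Genes with the most similar profiles were found among 879 other genes that reached an FPKM of 100 in any library, by the distance between the pairs of changes (sham to WI, WI to IR). With 3 libraries this likeness rests on 2 differences. For Apoa5, the member with the largest range as deposited, the nearest were Slc25a22 (distance 0.18), Mug1 (0.23) and Map1lc3b (0.24). Mug1 encodes a plasma protease inhibitor, and its FPKM was 567, 354 and 694. Apom, with the smallest range as deposited, was nearest to Cisd1 (0.0077), H2-Q10 (0.020) and Fah (0.021), and Apoa2, with the highest mean level, to D8Ertd738e (0.016), Phyh (0.016) and Rps28 (0.023).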

How the data were processed

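The authors mapped reads to mm10 with TopHat2 2.0.9 and computed gene FPKM with Cuffdiff (Cufflinks 2.0.2) at default parameters; the deposited tables hold FPKM, its 95% bounds and a status per gene. The annotation release is not given in the sources used here. Changes are differences in log2(FPKM + 1), over genes that reached an FPKM of 1 in any library and had status OK in both libraries compared. A gene was called past 2-fold at that size of change. With 1 library per group no test was made. Starts in the files were raised by 1, after which 6 of 10 matched RefSeq GRCm38.p6. Transcript lengths (longest protein-coding transcript, GENCODE M1 on the older NCBIM37 build) were joined by symbol only, for 93.6% of 10758 genes tested. The calculation was tested on simulated data, with changes larger than that of any member and a coefficient of variation below the members' median. That checks the arithmetic and not the calls on the members. Members and gene lists were chosen with earlier results of these data known, and 2 genes of the lists are not reported here and were left out of their counts. The genes named are the members, list genes past 2-fold, the 2 most abundant of each list, the nearest profiles and the sex-linked genes. Apobec1, Mttp, Apoc4, Apoh, Lrp1, Apol9b, Lyve1, Fabp2 and the enterocyte genes were named after their values were seen. Alternatives were other pseudocounts, filters, scalings, status rules and a 1.5-fold threshold. Python 3.11.15, numpy 2.4.6, pandas 2.3.3 and matplotlib 3.10.9 were used.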

Additional observations from a re-analysis of the deposited data

How the results depend on the processing

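The count of members past 2-fold at a 1.5-fold threshold became 1 from sham to WI, 4 from WI to IR and 5 between IR and sham. Rescaled to a common sum (TPM), the count from WI to IR went from 2 to 1 (Apob) and that between IR and sham from 0 to 1 (Apob), and the median changes of the members reversed, to -0.080 and -0.065. Leaving out Mup genes from the sum gave counts of 1 and 1, medians of 0.083 and 0.094, and a members' share of 9.43% in IR. Scaling by secreted hepatocyte genes gave counts of 0 and 1 and medians of 0.28 and 0.23. Over all genes, those past 2-fold between IR and sham went from 798 to 1230 at a common sum. The other 68 alternative values for the counts, medians and shares stayed within 1.5 times, 0.1 or 10% of the reported ones. Pseudocounts, filters and status rules moved none of them further. Leaving out a replicate was not possible with 1 library per group. No paired analysis was possible because each group has a single library and no test was made.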

Other observations

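The secreted hepatocyte proteins used as a reference had their own exceptions. Of 27 measured, 5 were past 2-fold higher in IR than in WI and also than in sham: the fibrinogen chains Fga, Fgb and Fgg and the terminal complement genes C8b and C9. At a common sum of FPKM all 5 were still higher in IR, by 0.48 to 0.80 over WI and 0.59 to 0.90 over sham, and 0 were past 2-fold. Fgb, the most abundant of them, had an FPKM of 2180 in sham, 2596 in WI and 5290 in IR. Serpina6, which encodes the plasma carrier of glucocorticoids, was past 2-fold higher in WI (491) than in sham (236) and lower again in IR (218). Without these 6, the list's changes from WI to IR ran from -0.50 for Cp to 0.67 for C8a.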
